A study of Mus musculus with 2 samples.

Results

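The Notch receptors Notch1, Notch2 and Notch3, the ligands Jag1, Jag2 and Dll4, the DNA-binding factor Rbpj and the target genes Hes1, Hey1 and Nrarp were followed through the cell types of the mouse submandibular gland. They are 10 of the 27998 genes counted, chosen by name for their place in the pathway. The gland is a major salivary gland, and it was compared between 1 p63 KO mouse library and 1 p63 WildType (WT) library. Trp63, the gene of p63, makes a factor that maintains basal cells of epithelia. Both animals were adults of 12 weeks, and whole glands were dissociated and captured with the 10x Genomics Chromium 3' v2 kit. The labels name the source as epithelial progenitor cells, but both libraries also held vascular and immune cells. The way p63 was removed, its timing, the cells concerned and any pooling of glands are not stated.

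Notch signalling passes between touching cells. A Jagged or Delta-like ligand on one cell binds a Notch receptor on its neighbour, ADAM proteases and gamma-secretase then cut the receptor, and the freed intracellular part joins RBPJ on DNA to switch on target genes. Hes1 and Hey1 are transcriptional repressors of that kind, and Nrarp is a target that feeds back to restrain the receptor. In vessels, Dll4, Notch1 and Hey1 are known for their part in arterial fate and sprouting. In skin, Notch and p63 are known to restrain each other. The question put to the data was where in the gland these genes were found, and whether their levels differed between the genotypes.

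The KO library held 11828669 UMIs in 4726 barcodes and the WT library 8811082 UMIs in 1970 barcodes. A UMI (unique molecular identifier) marks 1 captured molecule. After barcodes under 200 genes or with 20% or more mitochondrial UMIs were dropped, 2423 KO cells with a median of 2088 UMIs and 1663 WT cells with a median of 3406 remained. The libraries shared 11 barcodes, of which 7 were kept. Cells were then gated by marker genes into classes, named with "-like" because the names rest on RNA alone. A class received 1755 KO and 1338 WT cells. All 14 endothelial and all 8 macrophage markers were detected in their class in both libraries. Other sets were less complete, such as acinar with 7 of 11 in KO and striated or excretory duct with 6 of 8 in WT. The gate uses these same markers, so their detection is no separate check of the names. The marker sets conflicted in 371 KO and 193 WT cells, and 297 KO and 132 WT cells matched no set. Cells outside the named classes, which for these sums include red cells and pericytes, held between 17.9% (Hey1) and 38.0% (Notch3) of each gene's UMIs in the KO library, and between 10.3% (Jag2) and 30.4% (Notch3) in the WT library.

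UMIs were summed over the cells of a class and scaled by the class total to CPM, the usual depth-normalised count. Tags come from 3' ends, so CPM does not scale with transcript length, and levels are compared here between classes within a gene. With 1 library per genotype there is no test between genotypes and no replicate check. Intervals are exact 95% Poisson or binomial intervals, cover counting error only, and would be wider with animals as replicates. A size rule was read instead: a gene passed it when the 2 groups compared had at least 50 UMIs together and the interval of their ratio lay wholly beyond 2-fold. The share of all genes past the same rule is given beside each count as the background.

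Trp63 itself had 20 UMIs in the KO and 149 UMIs in the WT library, which was 6.46-fold lower per UMI sequenced in KO (4.03 to 10.9), a ratio that the cell mix enters. In myoepithelial-like cells Trp63 had 9 KO and 8 WT UMIs, or 67.9 CPM in KO and 84.8 CPM in WT, a ratio of 0.802 with a wide interval (0.275 to 2.39). In basal duct-like cells it had 2 KO and 85 WT UMIs, a ratio of 0.262 (0.0312 to 0.974). Trp63 is itself a marker of that gate, so the selection of cells enters this ratio. A 3' tag reports on the deletion only where that removes the tagged end or the transcript. The basal duct-like class, gated on Krt5, Krt14, Krt15, Krt17 and Trp63, held 45 KO and 351 WT cells. In the KO cells the gate rested on Krt14 and Krt17, with 273 and 400 UMIs, since Krt5 had 1 UMI and Krt15 was at 0. In WT cells Krt14 and Krt17 had 3501 and 2750 UMIs, and Krt5 and Krt15 had 489 and 649 UMIs.

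Promoter windows are shown for 3 genes: Nrarp, highest in NK-like cells of both libraries, Dll4, which among gated cells was counted almost only in endothelial-like cells, and Rbpj, whose KO level was highest in macrophage-like cells. Each is the 250 bases before the RefSeq transcription start on the plus strand of GRCm38.p6, at chr2:25180508-25180757 for Nrarp, chr2:119325534-119325783 for Dll4 and chr5:53590096-53590345 for the upstream of 2 Rbpj starts. RefSeq windows were found for 8 of the 10 genes. Capitals mark the RBPJ core motif TGGGAA, on either strand (TTCCCA on the other), and the E-box CACGTG, a palindrome of the kind bound by basic helix-loop-helix factors.
Nrarp: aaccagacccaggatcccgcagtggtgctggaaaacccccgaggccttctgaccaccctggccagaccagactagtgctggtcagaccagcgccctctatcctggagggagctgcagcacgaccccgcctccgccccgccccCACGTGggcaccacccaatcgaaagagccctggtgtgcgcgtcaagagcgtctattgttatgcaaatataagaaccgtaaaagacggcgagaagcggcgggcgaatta
Dll4: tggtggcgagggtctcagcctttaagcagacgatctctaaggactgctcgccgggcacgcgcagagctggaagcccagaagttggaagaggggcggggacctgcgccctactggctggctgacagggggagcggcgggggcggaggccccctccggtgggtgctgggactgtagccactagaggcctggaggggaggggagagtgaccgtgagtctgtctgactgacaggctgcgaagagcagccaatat
Rbpj: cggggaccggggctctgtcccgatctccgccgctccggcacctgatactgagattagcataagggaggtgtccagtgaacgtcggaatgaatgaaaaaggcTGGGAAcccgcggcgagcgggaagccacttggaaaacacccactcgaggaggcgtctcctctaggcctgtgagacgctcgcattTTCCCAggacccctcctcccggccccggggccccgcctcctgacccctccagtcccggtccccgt
TGGGAA was present in the windows of 1 of the 8 genes, Rbpj, where the 2 matches lay 149 to 144 and 65 to 60 bases before the start. It was found in 21.6% of all 32851 mouse windows of that length. CACGTG was present in 1 of the 8, Nrarp, at 108 to 103 bases before the start, and in 6.02% of all windows. The 2 motifs do not overlap each other in these windows. A match is a string of letters and not a binding site, and its absence concerns only these 250 bases.

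**Figure D1:**
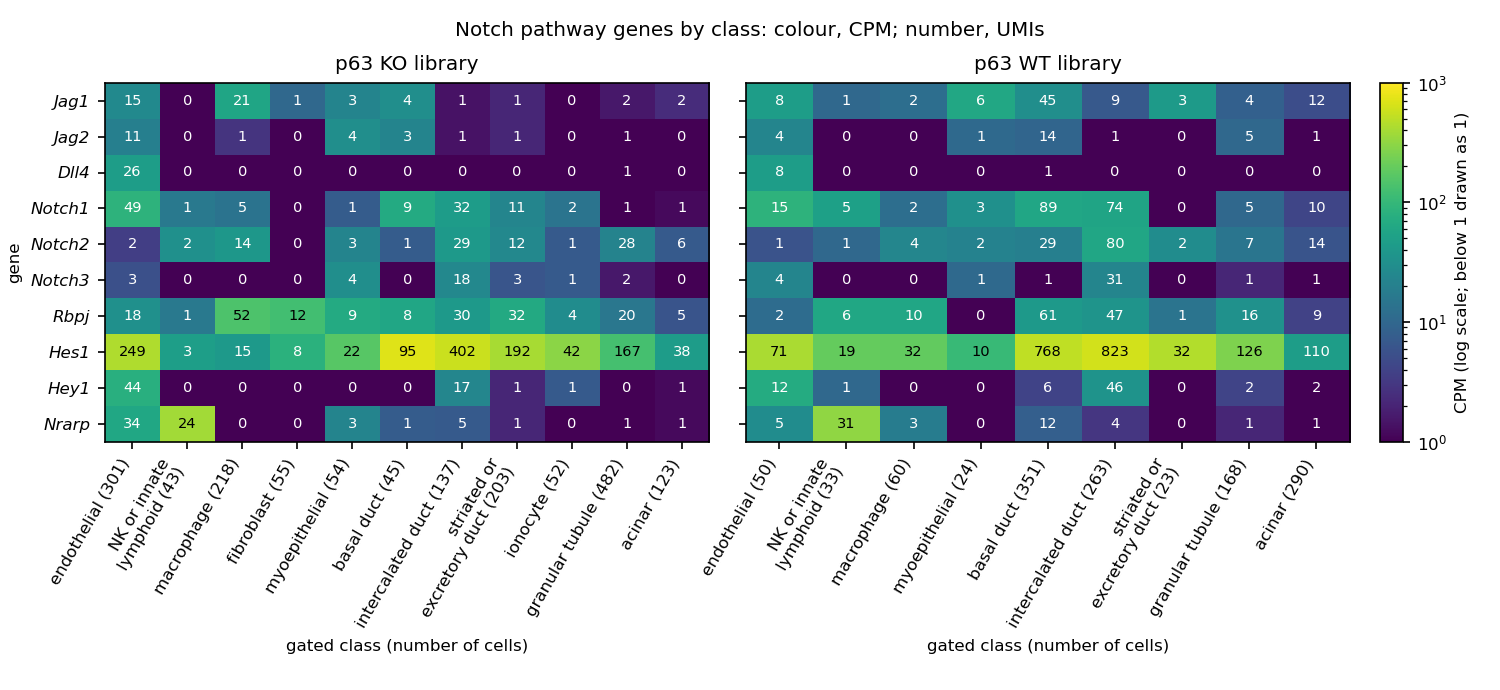
Level of each gene (rows, ordered as ligands, receptors, Rbpj and targets) in each gated class (columns, with the number of cells) of the p63 KO library (left) and the p63 WT library (right); colour is CPM on a log scale and the printed number is the UMI count. Hes1 was the most counted of the 10 in both libraries, with 1975 KO and 2639 WT UMIs over all kept cells. Most other fields hold fewer than 50 UMIs, and classes under 20 cells in a library are not drawn.

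Among the ligands, Dll4 stood out for where it was found. Dll4 (ENSMUSG00000027314, GRCm38 chromosome 2, 119325784 to 119335962, plus strand), the Delta-like ligand of growing and arterial vessels, had 26 UMIs in KO endothelial-like cells, or 46.4 CPM (30.3 to 67.9), and 8 UMIs in WT endothelial-like cells, or 46.4 CPM (20.1 to 91.5). The next class held 1 UMI in each library, granular tubule-like in KO and basal duct-like in WT, with intervals clear of the endothelial one. No Dll4 UMI was counted in 218 KO and 60 WT macrophage-like cells, which allows up to 8.38 CPM in KO and 18.0 CPM in WT macrophage-like cells. Over all kept cells Dll4 had 36 KO and 12 WT UMIs, a ratio of 3.46 (1.76 to 7.31). The ratio within endothelial-like cells was 0.998 (0.439 to 2.55). Endothelial-like cells made up 12.4% of KO and 3.01% of WT kept cells, so the cell mix enters the ratio over all cells.

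Jag1 (ENSMUSG00000027276, chromosome 2, 137081456 to 137116644, minus strand), a Jagged ligand of vessels and basal epithelium, was spread over more classes. In the KO library it was highest in macrophage-like cells, with 21 UMIs or 58.6 CPM (36.3 to 89.6), found in 15 of 218 cells. This was 9.22-fold (5.0 to 16.7) the level of the other KO gated cells. In WT macrophage-like cells it had 2 UMIs, or 12.0 CPM. The KO over WT ratio in macrophage-like cells was 4.89 with an interval of 1.2 to 43.0, from 23 UMIs in all, too few for the size rule. Basal duct-like cells had 4 Jag1 UMIs in KO, or 30.1 CPM (8.20 to 77.1), and 45 in WT, or 30.5 CPM (22.2 to 40.8), a ratio of 0.988 with a wide interval (0.258 to 2.71). The WT level was 3.25-fold (2.11 to 5.01) that of the other WT gated cells, and these cells held 45 of the 115 WT Jag1 UMIs. WT myoepithelial-like cells, at 63.6 CPM from 6 UMIs, and WT endothelial-like cells, at 46.4 CPM from 8 UMIs, had higher values. So did WT striated or excretory duct-like cells, at 42.8 CPM from 3 UMIs. The intervals of these classes overlap that of basal duct-like cells. When WT cells were clustered, the striated or excretory duct-like cluster of 34 cells had 94.0 CPM (45.1 to 173) from 10 UMIs. The WT basal duct-like cluster had 38.5 CPM (26.7 to 53.8) from 34 UMIs.

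Jag2 (ENSMUSG00000002799, chromosome 12, 112907819 to 112929776, minus strand), the other Jagged ligand, was sparse, with 31 KO and 29 WT UMIs over all kept cells. The class with the most KO UMIs was endothelial-like, with 11 UMIs or 19.6 CPM (9.79 to 35.1). The class with the most WT UMIs was basal duct-like, with 14 UMIs or 9.48 CPM (5.18 to 15.9). Myoepithelial-like cells ranked first in KO, at 30.2 CPM from 4 UMIs, and endothelial-like cells in WT, at 23.2 CPM from 4 UMIs. Intervals of the leading classes overlapped, so no order can be read at this depth.

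Among the receptors, Notch1 was shared by vessel and duct. Notch1 (ENSMUSG00000026923, chromosome 2, 26457903 to 26516663, minus strand) had 87.4 CPM (64.6 to 116) in KO endothelial-like cells from 49 UMIs and 87.1 CPM (48.7 to 144) in WT endothelial-like cells from 15 UMIs, a ratio of 1.0 (0.553 to 1.93). Basal duct-like cells had 67.7 CPM (31.0 to 129) in KO from 9 UMIs and 60.3 CPM (48.4 to 74.2) in WT from 89 UMIs, a ratio of 1.12 (0.498 to 2.23). Intercalated duct-like cells had 45.2 CPM (30.9 to 63.8) in KO from 32 UMIs and 55.9 CPM (43.9 to 70.1) in WT from 74 UMIs, a ratio of 0.809 (0.517 to 1.24). The order endothelial, basal duct, intercalated duct was the same in both libraries, but each neighbour's interval overlapped the next. Acinar-like cells had 1 KO and 10 WT UMIs, and granular tubule-like cells 1 KO and 5 WT UMIs.

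Notch2 (ENSMUSG00000027878, chromosome 3, 98013527 to 98150361, plus strand) was highest in intercalated duct-like cells of both libraries, with 41.0 CPM (27.4 to 58.8) in KO from 29 UMIs and 60.4 CPM (47.9 to 75.2) in WT from 80 UMIs. The KO over WT ratio was 0.678 (0.427 to 1.05), an interval that includes equal levels. In the WT library this was 4.96-fold (3.52 to 7.01) the level of the other gated cells. In the KO library macrophage-like cells stood close behind, with 39.1 CPM (21.4 to 65.6) from 14 UMIs, against 24.0 CPM from 4 UMIs in WT macrophage-like cells. Endothelial-like cells, high in Notch1, had 2 KO and 1 WT Notch2 UMIs.

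Notch3 (ENSMUSG00000038146, chromosome 17, 32120820 to 32166852, minus strand), known from the muscle coat of vessels, here had the most UMIs in intercalated duct-like cells. They held 18 of 50 KO UMIs, at 25.4 CPM (15.1 to 40.2), and 31 of 56 WT UMIs, at 23.4 CPM (15.9 to 33.2), a ratio of 1.09 (0.572 to 2.0). KO myoepithelial-like cells had 30.2 CPM (8.23 to 77.3) from 4 UMIs, and WT ones 10.6 CPM from 1 UMI. Pericyte-like cells, in which the gene is known best, numbered 3 in the KO library, with 5581 UMIs of all genes, and were not compared. Red cells and pericyte-like cells together held 5 of the 50 KO Notch3 UMIs, and red cells alone held 0. Notch3 is thus ranked here only among the larger classes. In the 3 KO myoepithelial-like cells with Notch3, intercalated and basal duct markers summed to 389 CPM, against 3629 CPM in the rest. Whether those cells were pericytes was not tested.

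Rbpj (ENSMUSG00000039191, chromosome 5, 53466152 to 53657362, plus strand), which carries the Notch signal to DNA, was highest in KO macrophage-like cells, with 52 UMIs or 145 CPM (108 to 190), found in 46 of 218 cells. That was 4.70-fold (3.35 to 6.50) the level of the other KO gated cells. WT macrophage-like cells had 10 UMIs, or 59.95 CPM (28.8 to 110). The KO over WT ratio was 2.42 (1.22 to 5.35), which did not reach the size rule. KO fibroblast-like cells came next, with 124 CPM (64.1 to 217) from 12 UMIs, and their interval overlaps that of macrophage-like cells. In WT, NK-like cells ranked first, with 61.6 CPM (22.6 to 134) from 6 UMIs, close to macrophage-like cells. In basal duct-like cells Rbpj had 60.2 CPM in KO from 8 UMIs and 41.3 CPM in WT from 61 UMIs, a ratio of 1.46 (0.602 to 3.06). In intercalated duct-like cells it had 42.4 CPM in KO and 35.5 CPM in WT, a ratio of 1.19 (0.729 to 1.93).

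Hes1 (ENSMUSG00000022528, chromosome 16, 30064384 to 30067796, plus strand), a repressor that holds progenitor cells undifferentiated in many tissues, was high in basal, intercalated and striated or excretory duct-like cells and in the endothelium, lower in granular tubule-like cells and low in acinar-like cells. In the KO library it had 715 CPM (579 to 874) in basal duct-like, 568 (514 to 626) in intercalated duct-like, 444 (391 to 503) in endothelial-like and 400 CPM (345 to 461) in striated or excretory duct-like cells. In the WT library it had 520 CPM (484 to 558) in basal duct-like, 621 (580 to 665) in intercalated duct-like, 412 (322 to 520) in endothelial-like and 456 CPM (312 to 644) in striated or excretory duct-like cells. Basal duct-like cells thus ranked first in KO, with an interval that overlaps the intercalated one, and second in WT, with an interval clear of it. The KO striated or excretory duct-like level pools unlike clusters. Of its 203 cells, 98 lay in an unnamed cluster whose leading genes included the ionocyte markers Foxi1 and Ascl3. Hes1 in that cluster was at 249 CPM (203 to 304). Another 68 lay in an unnamed cluster led by S100a8 and S100a9, with Hes1 at 525 CPM (460 to 596). Acinar-like cells had 45.2 CPM (32.0 to 62.1) in KO and 47.2 CPM (38.8 to 56.9) in WT, the lowest Hes1 level of any WT class drawn. After each cell was thinned to 1000 UMIs, a Hes1 UMI was found in 41.6% of KO and 43.0% of WT intercalated duct-like cells, and in 6.50% of KO and 8.28% of WT acinar-like cells. Unthinned, the shares were 66.4% and 78.0% in KO and WT intercalated duct-like cells, and 17.9% and 23.8% in KO and WT acinar-like cells.

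Among the 7 classes compared between the genotypes, the Hes1 ratios furthest from 1 lay in macrophage-like and granular tubule-like cells. NK-like cells, too few to be compared, had 48.55 CPM in KO from 3 UMIs and 195 CPM in WT from 19 UMIs, of which the 5 cells with the most held 17. Granular tubule-like cells, the kallikrein-rich duct segment, had 129 CPM (111 to 151) in KO from 167 UMIs and 261 CPM (218 to 311) in WT from 126 UMIs, 2.02-fold lower in KO (1.59 to 2.56). Median depth in these cells was 2666.5 UMIs in KO and 2668.5 in WT. Thinned to 1000 UMIs, 12.0% of KO (9.27 to 15.3) and 22.6% of WT cells (16.5 to 29.7) held a Hes1 UMI. The KO over WT ratio was 0.495, and lay between 0.419 and 0.556 with other barcode filters, gates, scalings, thinning and clusters, but its interval reached above 0.5, so the size rule was not passed. Intercalated duct markers in the same cells summed to 89.1 CPM in KO (4 of 6 markers detected) and 334 CPM in WT (5 of 6), and basal duct markers to 2.32 CPM in KO (2 of 5) and 72.6 CPM in WT (4 of 5). Their part in the Hes1 difference was not tested. Clustering of the KO library gave a granular tubule-like cluster of 473 cells with a median of 2900 UMIs. Hes1 stood there at 151 CPM (131 to 173). Another KO cluster of that name had 114 cells, a median of 1314.5 UMIs and Hes1 at 49.45 CPM (21.35 to 97.43) from 8 UMIs. The WT cluster of that name had 196 cells and Hes1 at 252 CPM (212 to 298). The part of this split in the KO over WT ratio was not tested.

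**Figure D2:**
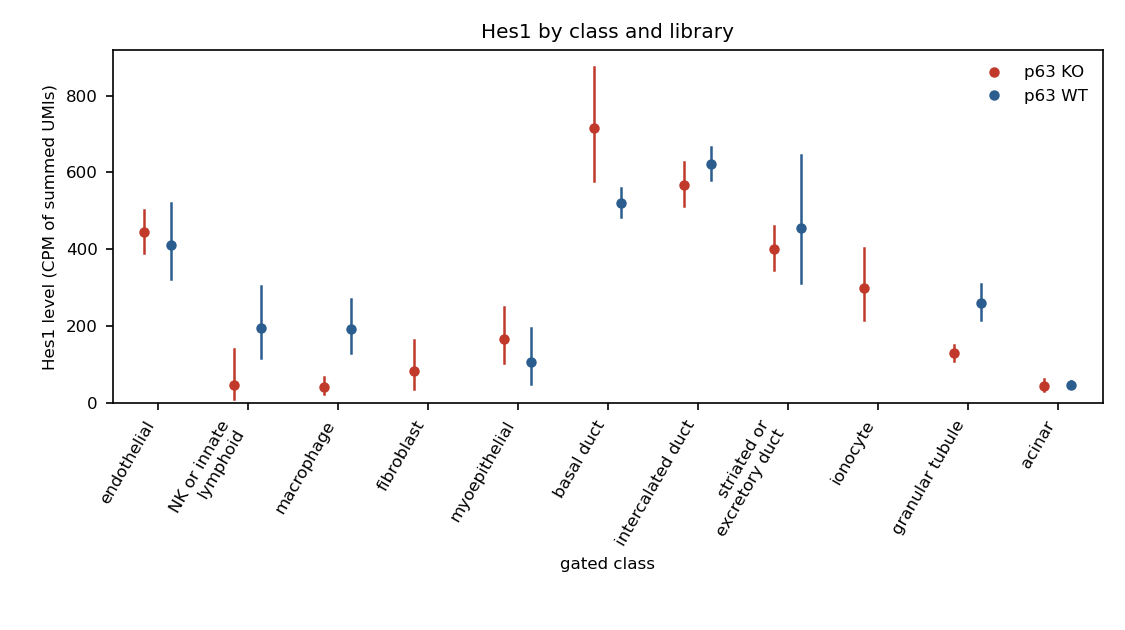
Hes1 level (CPM of summed UMIs, linear axis) in each gated class of the p63 KO (red, left of each pair) and p63 WT library (blue, right); points are levels and bars exact 95% Poisson intervals. Granular tubule-like cells, at 129 CPM in KO and 261 CPM in WT, macrophage-like cells, at 41.9 CPM in KO and 192 CPM in WT, and basal duct-like cells, at 715 CPM in KO and 520 CPM in WT, have intervals that do not overlap. Intercalated duct-like and endothelial-like intervals do.

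In macrophage-like cells Hes1 had 15 UMIs in KO, or 41.9 CPM (23.4 to 69.1), and 32 UMIs in WT, or 192 CPM (131 to 271), 4.58-fold lower in KO (2.41 to 9.10). The 47 UMIs fell short of the minimum of 50. The WT UMIs sat in 9 of 60 cells, and 26 of the 32 were in 5 cells. The KO UMIs sat in 12 of 218 cells. Over all 218 KO and 60 WT cells of the class, the 8 macrophage markers of the gate summed to 7879 CPM in KO and 12350 CPM in WT. They were not summed apart in the cells with Hes1. Neutrophil markers summed to 61.4 CPM in KO macrophage-like cells, and to 89.9 CPM in WT ones, with 3 of 6 detected in each. Intercalated duct markers summed to 97.7 CPM in KO macrophage-like cells (2 of 6 detected) and 635 CPM in WT ones (3 of 6), and the acinar markers to 4984 CPM in KO (6 of 11) and 18040 CPM in WT (7 of 11). Their part was not tested. Intercalated and basal duct markers together came to 1065 CPM in the WT macrophage-like cells that held Hes1, and to 824 CPM in those that did not. In WT the same sums, with and without Hes1, were 2838 and 995 CPM in endothelial-like and 2599 and 245 CPM in NK-like cells. They were 559 and 274 CPM in WT granular tubule-like cells, and 552 and 649 CPM in WT striated or excretory duct-like ones. In KO they were 429 and 183 CPM in endothelial-like and 105 and 86.7 CPM in granular tubule-like cells. The part of such RNA in the Hes1 levels was not tested.

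In basal duct-like cells, where p63 is normally expressed, Hes1 was 1.38-fold higher in KO (1.10 to 1.70), from 95 KO and 768 WT UMIs. The excess was within 2-fold and rests on 45 KO cells. In those cells striated or excretory duct markers summed to 3116 CPM (6 of 8 detected), beside 5088 CPM for basal duct markers. The part of such a mixed identity in the Hes1 ratio was not tested. With TMM scaling, an edgeR method based on a trimmed mean over genes, the ratio was 1.09 (0.873 to 1.35). The median log2 ratio over all 3345 genes tested there was -0.0048 without TMM and -0.30 with it. A gate needing 1 more marker left 2 KO cells with no Hes1 UMI. Separate clustering of the KO library placed 43 of the 45 cells in 1 cluster of 112 cells, led by Krt14, Krt17 and Sfn. That cluster did not meet the marker rule for a name, and its Hes1 level was 646 CPM (566 to 735). Intercalated duct-like cells gave a ratio of 0.914 (0.809 to 1.03), endothelial-like cells 1.08 (0.825 to 1.42) and acinar-like cells 0.958 (0.644 to 1.40). The acinar ratio depends on scaling, as the median log2 ratio over all genes tested there was 0.43. It was -0.08 once the 50 most abundant genes were left out of the total, and Hes1 then stood at a ratio of 0.618 (0.416 to 0.902). Immediate early genes, which are known to respond to dissociation, summed to 46860 CPM in KO and 23420 CPM in WT endothelial-like cells, to 33160 CPM in KO and 16710 CPM in WT macrophage-like cells, and to 26220 CPM in KO and 19980 CPM in WT granular tubule-like cells. Their part in any Hes1 value was not tested.

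Hey1 (ENSMUSG00000040289, chromosome 3, 8663359 to 8667256, minus strand), a repressor of arterial cells, was highest in endothelial-like cells, with 78.5 CPM (57.0 to 105) in KO from 44 UMIs and 69.7 CPM (36.0 to 122) in WT from 12 UMIs. The KO over WT ratio was 1.13 (0.585 to 2.34), and 0.416 (0.182 to 0.973) when the small Hey1-rich KO cluster described with the endothelial clusters was left out of KO alone. The only other class with more than 10 Hey1 UMIs was intercalated duct-like, with 24.0 CPM (13.99 to 38.4) in KO from 17 UMIs and 34.7 CPM (25.4 to 46.3) in WT from 46 UMIs. The ratio there was 0.691 (0.372 to 1.23). The WT intercalated level was 6.90-fold (4.18 to 11.6) that of the other WT gated cells. Macrophage-like cells had 0 Hey1 UMIs in both libraries, which allows up to 8.38 CPM in KO and 18.0 CPM in WT.

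Nrarp (ENSMUSG00000078202, chromosome 2, 25180758 to 25183339, plus strand), the feedback target, reached its highest level in NK or innate lymphoid-like cells (NK-like). There, 8 of 9 natural killer and innate lymphoid markers, which define the gate, were detected in KO and 9 of 9 in WT. Only the 3 markers that the gate needs were found in 27 of the 43 KO and 7 of the 33 WT cells. The 43 KO cells held 24 UMIs, or 388 CPM (249 to 578), and the 33 WT cells held 31 UMIs, or 318 CPM (216 to 452). A Nrarp UMI was found in 37.2% of KO (23.0 to 53.3) and 51.5% of WT cells (33.5 to 69.2), or 30.2% of KO and 30.3% of WT cells after thinning. Acinar-like cells, gauging free RNA, held one in 0.813% of KO and 0.345% of WT cells. Their median depth was higher, 3660 UMIs in KO and 4364.5 in WT, against 1377 in KO and 2617 in WT NK-like cells. The NK-like level was 41.0-fold (23.9 to 68.6) that of the other gated cells in KO and 78.3-fold (45.0 to 137) in WT. The 5 cells with the most Nrarp held 13 of the 24 KO UMIs and 17 of the 31 WT UMIs. T cell markers summed to 129.5 CPM in KO and 236 CPM in WT NK-like cells, and their part was not tested. Endothelial-like cells ranked next, with 60.6 CPM (42.0 to 84.7) in KO from 34 UMIs and 29.0 CPM (9.42 to 67.7) in WT from 5 UMIs, a ratio of 2.09 (0.813 to 6.84).

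**Figure D3:**
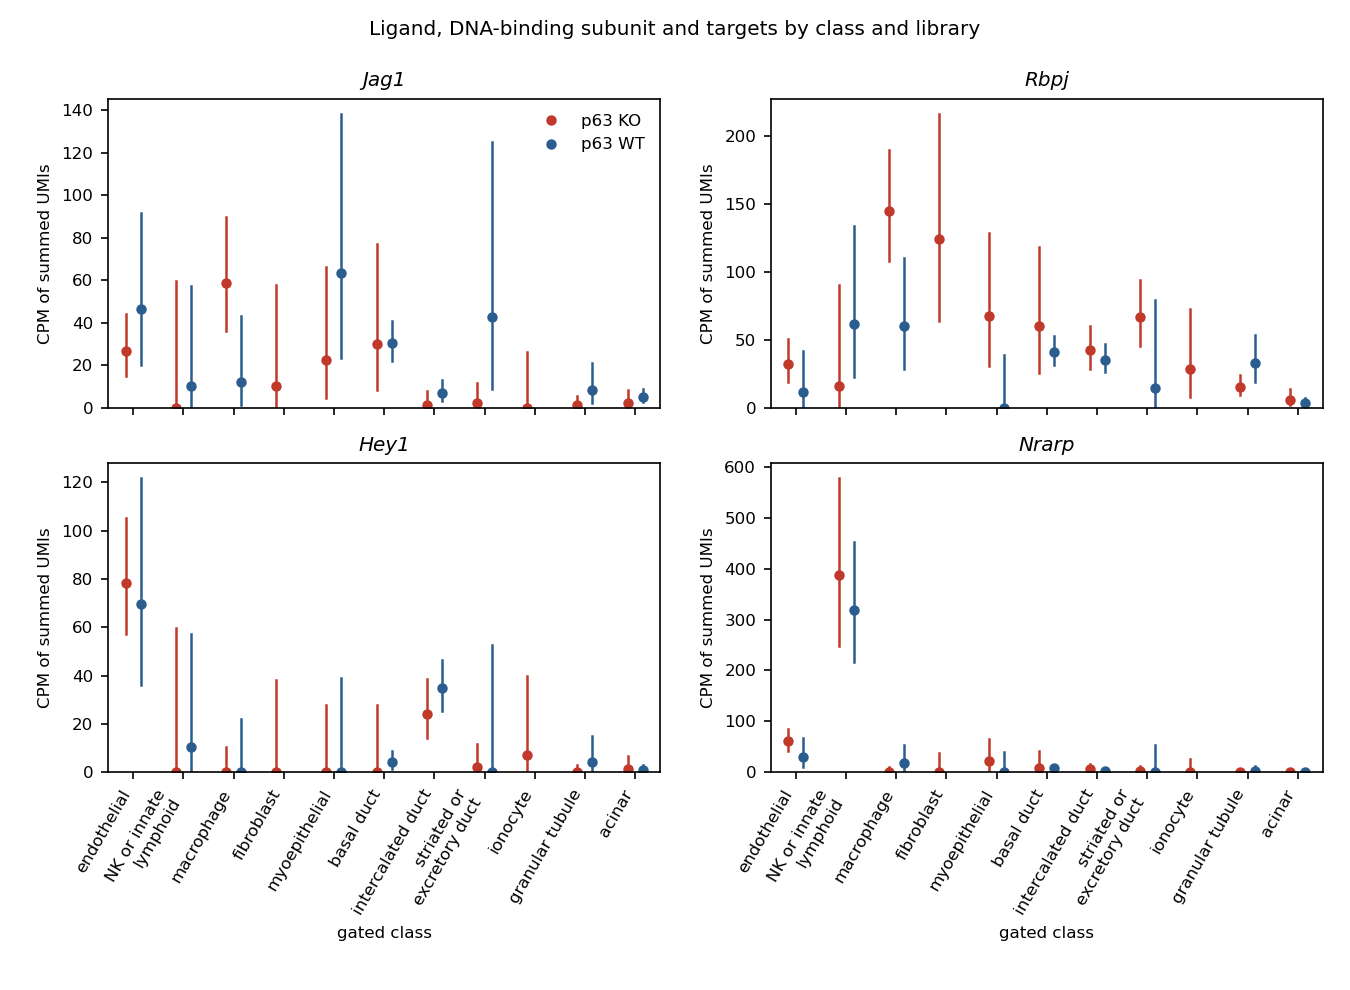
Levels (CPM of summed UMIs, linear axes that differ between panels) of the ligand Jag1, the DNA-binding factor Rbpj and the targets Hey1 and Nrarp in each gated class of the p63 KO (red, left of each pair) and p63 WT library (blue, right), with exact 95% Poisson intervals as bars. Nrarp peaks in NK-like cells, at 388 CPM in KO and 318 CPM in WT, and Hey1 in endothelial-like cells. Jag1 is highest in macrophage-like cells in KO, at 58.6 CPM, and in myoepithelial-like cells in WT, at 63.6 CPM, with intervals that overlap those of other classes.

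Set against the other gated cells of the same library, 8 of 77 pairs of a gene and a class were higher past the size rule in KO (3.57% of all gene and class pairs were), and 6 of 63 in WT (4.93% of all pairs). The number of pairs follows from the 7 of 10 genes with at least 50 UMIs over gated cells. That minimum includes the UMIs of the class itself, so a gene can reach it through the class in which it is high. This held for Nrarp in NK-like cells, with 46 UMIs in the other KO and 26 in the other WT gated cells. In KO it also held for Hey1 and Nrarp in endothelial-like cells (20 and 36 in the others) and Jag1 in macrophage-like cells (29). In WT it held for Jag1 in basal duct-like (47) and Hey1 in intercalated duct-like cells (26). So the counts are a description. KO endothelial-like cells had 3 of the 7, Notch1 at 5.95-fold (4.01 to 8.76), Hey1 at 17.1-fold (9.86 to 30.6) and Nrarp at 7.34-fold (4.45 to 12.1), against a background of 8.11% of genes. WT endothelial-like cells had 1 of the 7, Hey1 at 7.34-fold (3.59 to 13.8), against 4.16%. NK-like cells had 1 of the 7 in each library, Nrarp, against 3.11% in KO and 2.53% in WT. Macrophage-like cells had Jag1 and Rbpj in KO (7.57%) and none of the 7 in WT (3.87%). Basal duct-like cells had Hes1 in KO, at 2.95-fold (2.37 to 3.64; background 2.65%), and Jag1 in WT (11.7%). Intercalated duct-like cells had Hes1 in KO, at 2.81-fold (2.49 to 3.17; 3.85%), and Notch2, Hes1 and Hey1 in WT (12.1%), with Hes1 at 2.58-fold (2.36 to 2.82).

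In the opposite direction, 10 of 77 pairs were lower in KO (6.47% of all pairs) and 7 of 63 in WT (7.86%). Acinar-like cells had 5 of the 7 genes lower in KO and 7 of 7 in WT. There the background was 25.1% of genes in KO and 55.0% in WT. A list of 11 secretory genes, among them Smgc, Pip and Klk1, took 48.2% of the UMIs of KO and 63.5% of those of WT acinar-like cells, and its part in these counts was not tested. Granular tubule-like cells had Notch1, Jag1, Hey1 and Nrarp lower in KO (9.91%), and KO macrophage-like cells had Hes1 lower, at 0.154 of the level of the other cells (0.0861 to 0.255; 10.7%).

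Between the genotypes no gene passed the size rule in any class. There were 14 pairs of a gene and a class with at least 50 UMIs, of 70 in the 7 classes compared, with 0 higher and 0 lower in KO. With a minimum of 20 UMIs, 27 pairs were read and 1 passed, Hes1 in macrophage-like cells, lower in KO. The share of all genes past the rule in either direction was 4.57% in endothelial-like, 13.3% in macrophage-like, 6.74% in myoepithelial-like, 2.27% in basal duct-like, 3.81% in intercalated duct-like, 2.87% in granular tubule-like and 11.1% in acinar-like cells. With 0 to 5 pairs per class, a count of 0 is near these backgrounds.

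**Figure D4:**
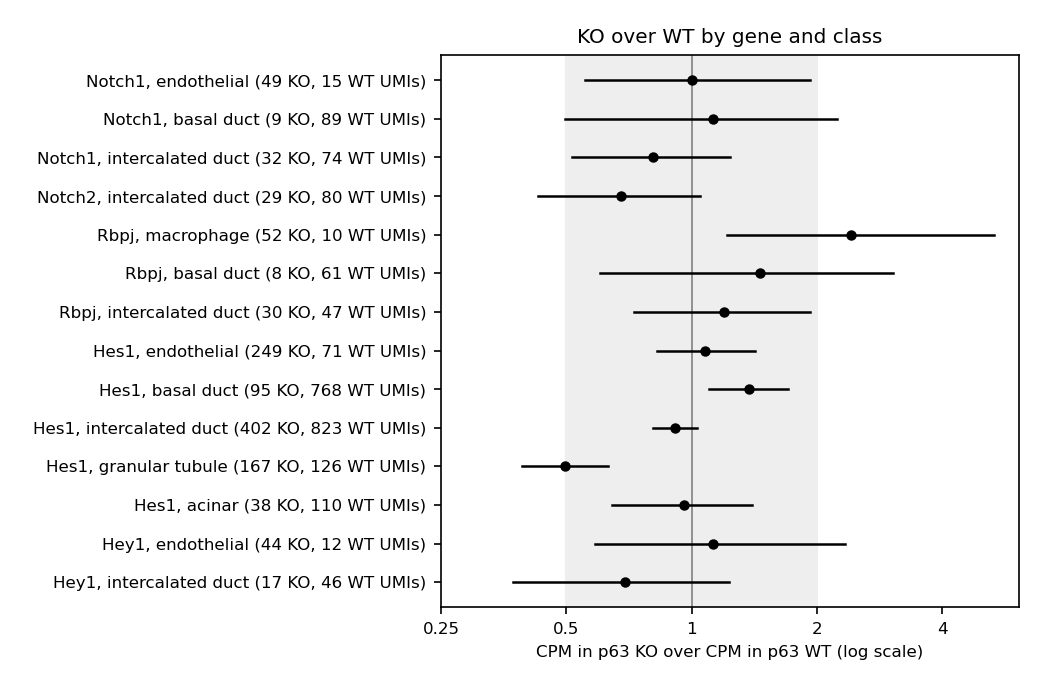
Ratio of the p63 KO to the p63 WT level (log axis) for the 14 pairs of a gene and a class with at least 50 UMIs, with the UMI counts of both libraries; points are ratios, bars exact 95% intervals and the grey band spans 2-fold either way. Hes1 in granular tubule-like cells, at 0.495, and Rbpj in macrophage-like cells, at 2.42, lie outside the band with intervals that cross into it.

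The other 60 genes of the pathway, in 6 groups by role, gave 3 calls between the genotypes. In KO against WT macrophage-like cells 1 of the 2 tested genes of receptor cleavage was higher: Furin, a protease that matures the receptor, had 94 KO and 11 WT UMIs and was 3.98-fold higher (2.13 to 8.25). It passed the rule under both other scalings. In acinar-like cells 2 of the 5 tested co-factors of RBPJ were higher in KO. Cir1, a co-repressor, had 49 KO and 19 WT UMIs, a ratio of 7.15 (4.13 to 12.9). Snw1, a co-activator, had 47 KO and 39 WT UMIs, a ratio of 3.34 (2.14 to 5.25). With TMM scaling Cir1 stood at 4.33 (2.50 to 7.79), and Snw1 at 2.02 (1.30 to 3.18), which does not pass. The median log2 ratio of these co-factors was 0.94, beside 0.43 for all genes tested in acinar-like cells. None of the 6 tested cleavage genes or the 14 tested co-factors changed in intercalated duct-like cells, where their median log2 ratios were -0.20 and 0.16 beside 0.02 for all genes.

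Between classes, more of the other pathway genes passed the rule than between genotypes. Their counts lay on both sides of the background, mostly near it, and are no result about the pathway as a set. The minimum again includes the UMIs of the class itself. In WT intercalated duct-like cells, which lead in Notch2 and Hes1, 7 of 35 tested were higher than in other cells (12.1% of all genes were) and 1 was lower. They included the gamma-secretase part Psenen at 2.35-fold (2.03 to 2.71), the ubiquitin ligase Itch at 3.02-fold (2.23 to 4.07) and the co-repressor Tle3 at 3.99-fold (3.12 to 5.10). In WT basal duct-like cells 3 of 35 were higher (11.7% of all genes). Among them Dlk2, a non-canonical ligand relative, was 11.8-fold higher (7.39 to 19.4), with 83 of its 107 UMIs in gated cells. The group of other receptors and ligands, which includes Dlk2, summed to 69.8 CPM from 103 UMIs in WT basal duct-like cells. In WT myoepithelial-like cells it summed to 212 CPM from 20 UMIs, and in KO ones to 30.2 CPM from 4 UMIs. WT myoepithelial-like cells had 2 of 35 pathway genes higher (4.93% of all WT gene and class pairs were). KO basal duct-like cells had 1 of 33 higher (2.65%), Dtx3. In KO macrophage-like cells 4 of 33 were higher (7.57%), Furin, Adam17, Psen2 and Neurl3, and in WT macrophage-like cells 2 of 35 (3.87%), Psen2 and Adam17. Adam17, an ADAM protease listed in the cleavage group, was 7.27-fold higher in KO (4.21 to 12.3) and 9.48-fold in WT (4.23 to 19.3) than in the other cells of the library. Numb, an inhibitor of the receptor, was 5.67-fold higher in KO endothelial-like cells (3.32 to 9.56), as 1 of 33 (8.11%). WT endothelial-like cells had 2 of 35 higher (4.16%). Neurl3, a Neuralized-family ubiquitin ligase, was 37.3-fold higher in KO NK-like cells (20.4 to 66.0), as 1 of 33 (3.11%). WT NK-like cells held 10 of 31 gated Neurl3 UMIs, under the minimum, and had 0 of 35 genes higher (2.53%). In acinar-like cells 8 of 33 were lower in KO (25.1%) and 24 of 35 in WT (55.0%).

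Within the KO endothelium the genes were not spread evenly. Clustering of the KO library, from which the 10 genes were left out, gave 2 endothelial-like clusters. A small one of 22 cells was led by Fbln5, Cldn5, Cytl1, Mgp and Sema3g, and a large one of 277 cells by Aqp1, Plvap and Flt1. Hey1 had 32 UMIs, or 654 CPM (447 to 923), in the small cluster and 14 UMIs, or 29.8 CPM (16.3 to 50.01), in the large one. It was found in 17 of 22 and 12 of 277 cells. Notch1 had 347 CPM (202 to 556) from 17 UMIs in the small and 66.0 CPM (44.8 to 93.7) from 31 UMIs in the large cluster. Jag1 had 184 CPM (84.1 to 349) from 9 UMIs and 6.39 CPM (1.32 to 18.7) from 3 UMIs in the same clusters. Intervals of the small and large cluster were apart for these 3 genes. Dll4, at 102 CPM (33.2 to 238) from 5 UMIs in the small and 55.4 CPM (36.2 to 81.1) from 26 UMIs in the large cluster, did not, and neither did Nrarp or Hes1. The WT library gave 1 endothelial-like cluster of 50 cells, with Hey1 at 72.7 CPM (37.6 to 127), so the split could not be looked for in it at this number of cells. Without the small cluster, KO endothelial-like cells had 15 Hey1 UMIs. Such cells could be taken out of KO alone, while WT kept all 50 cells, so the lower ratio that follows compares unlike groups and is no measure of a genotype difference. Hey1 in endothelial-like and Jag1 in macrophage-like cells then fell from the pairs higher than in other KO cells, with both genes under the minimum of 50 UMIs over gated cells.

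**Figure D5:**
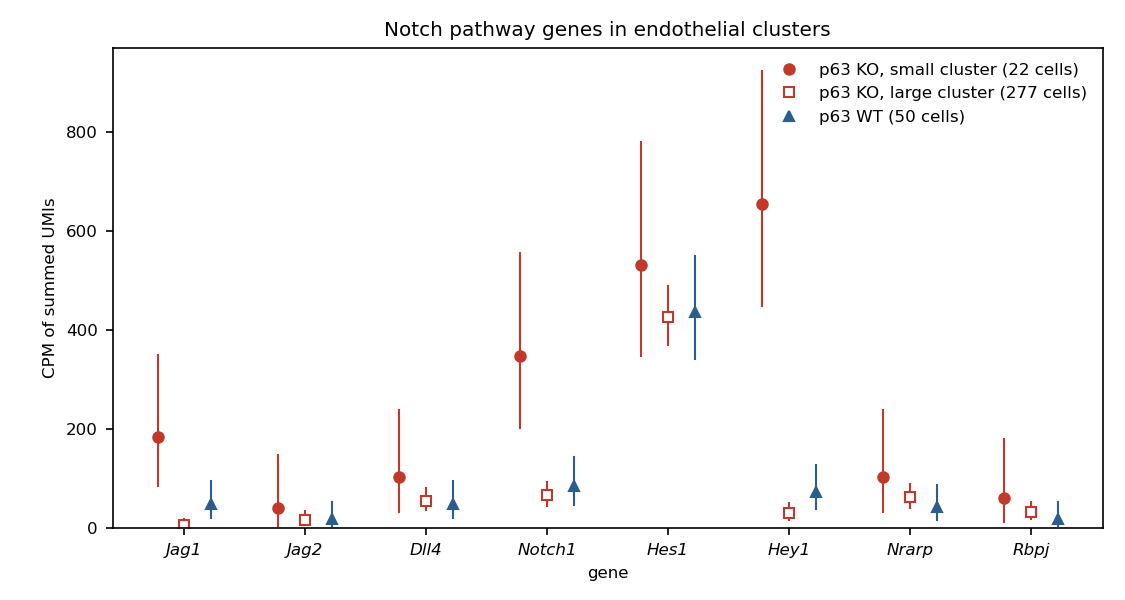
Levels (CPM of summed UMIs, linear axis) of 8 of the genes in the small and large endothelial-like clusters of the p63 KO library (red circles and open squares) and in the single one of the p63 WT library (blue triangles), with exact 95% Poisson intervals. Hey1 had 654 CPM in the small KO cluster, 29.8 CPM in the large one and 72.7 CPM in WT.

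Hey1 was found with Notch1, Dll4 and Jag1 in some of the same cells. In the 301 KO endothelial-like cells, 8 held UMIs of both Notch1 and Hey1, where the product of the single shares gives 3.05. For Dll4 with Hey1 there were 8 such cells, where the product gives 1.97, and for Jag1 with Hey1 6, where it gives 1.35. Notch1 with Hes1 gave 12 cells, equal to the product of 12.0. After thinning, Notch1 with Hey1 had 6 cells, where the product gives 1.46, and Dll4 with Hey1 had 5, where it gives 0.997. In intercalated duct-like cells Notch1 and Hes1 were found together in 22 KO cells, where the product gives 16.6, and in 54 WT cells, where it gives 49.1. These pairs were named after their values were seen, and deeper cells hold more of any pair. The small KO endothelial-like cluster of 22 cells held Hey1 in 17, Notch1 in 9 and Jag1 in 9 cells. The product of shares over the 301 pooled cells takes no account of that cluster.

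Across the 15 combinations of class and library with at least 50 cells, the genes whose level was most like each member's were listed by Pearson's r of log2(CPM + 10). The points share libraries and free RNA, so r is a description. Dll4 was closest to the endothelial genes Grrp1, Emcn and Ptprb, the last 2 being gate markers (r from 0.992 to 0.993). Hey1 was closest to Stc1, Lmcd1 and Upp1 (0.922 to 0.957), and Nrarp to Gpihbp1, Cd200 and Mrrf (0.889 to 0.908), in a set of points that lacks NK-like cells. Hes1 was closest to Vcl, Arid1a and Atp11b (0.92 to 0.945). Notch1 was closest to Bcam, Smagp and Piezo1 (0.856 to 0.879), Notch2 to Slc9a3r1, Coro1b and Snx16 (0.811 to 0.881) and Notch3 to Arpc1a, Actn1 and Bcl9l (0.877 to 0.90). Jag1 was closest to Ptpre, Rgl2 and Fbl (0.851 to 0.92), Jag2 to Dusp6, Foxo1 and Cav1 (0.844 to 0.864), and Rbpj to Rab10os, Hgsnat and Hnrnph2 (0.894 to 0.913).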

How the data were processed

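The authors deposited 1 table of raw UMI counts per gene and barcode for each library, whole numbers with no normalization. Seurat 3.1.2, Cell Ranger 2.1.0, the mm10 build and bcl2fastq 2.19.1 are listed, without roles, per the submitters' processing notes. The sources used here do not give the rule by which barcodes were chosen for deposit. Of the 27998 identifiers, 27722 received a symbol from GENCODE M21.

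From the counts, classes were gated per cell under Python 3.11.15 with numpy 2.4.6 and scipy 1.17.1. Vascular, stromal, immune, myoepithelial and ionocyte-like classes needed at least 3 markers of their set, 2 more than the next such set, and no epithelial or red cell set at 16-fold excess. Other classes needed 2 markers, a marker share 4-fold over its median in non-epithelial cells of the library (0.03% added to shares), and a lead of 1.5-fold. No doublet caller was run, and cells with conflicting sets were left out. The 10 genes and the lists were chosen with earlier results of these data known, and the gate's thresholds after the cells had been seen. Ratios have exact conditional 95% intervals; a 0 was given an upper limit of 3 counts. Log2 ratios had 10 CPM added. Classes with at least 50 cells per library were compared, and basal duct-like and myoepithelial-like cells always. Each library was clustered with scanpy 1.11.5 and leidenalg 0.10.2 without the 10 genes. TMM factors came from edgeR 4.0.16. The size rule was tested on simulated data. Named genes were all 10, Trp63, pathway genes past the rule in the class described, and the 3 genes most like each member among those with at least 200 UMIs.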

Additional observations from a re-analysis of the deposited data

How the results depend on the processing

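The alternatives were no filter on barcodes, at least 500 genes and under 10% mitochondrial UMIs, a gate needing 1 more marker, a total without the 50 most abundant genes, TMM factors, thinning to 1000 UMIs per cell, a minimum of 20 UMIs, Leiden clusters, and 1 or 50 CPM added. Leaving out the small KO endothelial-like cluster and leaving out shared barcodes were added after seeing the data. No gene passed the size rule between the genotypes under any of them, except that a minimum of 20 UMIs gave 1 lower in KO, Hes1 in macrophage-like cells. Pairs higher than in other cells, 8 in KO and 6 in WT, numbered 14 in KO with no filter, 4 with the stricter gate and 3 after thinning. In WT thinning left 0. Thinning leaves fewer UMIs to reach the minimum; the cause of the other shifts was not tested. Of 165 single KO over WT values for 14 pairs, 150 stayed within the counting interval, 15 moved beyond it and 17 changed sign; none of the 14 was a call. The gate needing 1 more marker, with 2 KO basal duct-like cells, took Notch1, Hes1 and Rbpj there to log2 ratios of -2.88, -5.74 and -2.30. No paired analysis was possible because there was 1 library per genotype, and no library could be left out.

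Limits: each genotype is 1 library, so animal, dissociation and genotype cannot be told apart. KO cells are shallower, and a smaller share of KO barcodes passed the filter. The basal duct gate rests on keratins that differed between libraries. Of 70 pairs of a gene and a class, 14 reached 50 UMIs, and the others could not be called. As an interval had to lie wholly beyond 2-fold, differences near 2-fold were not detectable by the rule in any pair.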
